A study of Homo sapiens with 8 samples.

Results

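The genes described here encode EGF receptors and the ligands that bind them, namely the receptors EGFR, ERBB2 and ERBB3 and the ligands TGFA, HBEGF, BTC, EREG, AREG and NRG1. They were chosen by gene symbol, and 9 of the 26364 genes in the count data are members. Of these 9 genes, 8 had enough reads to be tested, among 14201 genes tested in all. RNA was sequenced from LN229, an established human glioblastoma cell line, to ask how the location of Survivin, the product of BIRC5, bears on the transcriptional response to temozolomide (TMZ), an alkylating drug used against glioblastoma.

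The design held 4 groups of 2 libraries, lettered a and b. Surv-GFP cells (clone D6) carried a plasmid for Survivin fused to eGFP with a functional nuclear export signal (NES). The study reports that this fusion protein was mostly cytoplasmic without TMZ and accumulated in the nucleus after TMZ. The location of the fusion protein may therefore differ between untreated and TMZ-exposed Surv-GFP cells. SurvNESmut-GFP cells (clone L2) carried the same fusion with a mutated NES, which traps it in the nucleus. Cells of each clone were either left untreated or received TMZ at 50 µM over 48 h, and all 4 groups were grown in medium with the selection drug G418. Each form of Survivin is represented by 1 clone, so that effects of the Survivin form and of the clone cannot be told apart. The study describes these data as independent biological replicates, each in technical duplicates, but neither it nor the labels say which of these the letters stand for, and p-values therefore measure the spread between letters, which may be technical.

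Receptors of this family are tyrosine kinases that act in pairs. EGFR binds TGFA, HBEGF, BTC, EREG, AREG and EGF, ERBB3 and ERBB4 bind neuregulins such as NRG1, and ERBB2 has no known ligand of its own and serves as the partner of the others. ERBB3 has little kinase activity and signals mainly by recruiting PI3-kinase. The ligands are made as membrane-bound precursors that ADAM proteases release, and the activated receptors feed the RAS-ERK and PI3-kinase pathways. EGFR is among the genes most often amplified or mutated in glioblastoma.

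The counts on genes summed to 15826923 to 18861603 per library. BIRC5 stood at 1152 and 1113 CPM (the usual unit of counts scaled to a common library size, here with TMM factors) in untreated Surv-GFP cells and at 1938 and 2029 CPM with TMZ. In SurvNESmut-GFP cells BIRC5 stood at 407 and 414 CPM without and at 262 and 253 CPM with TMZ, and reads of the plasmid and of the chromosomal gene cannot be told apart in these counts. The letters of SurvNESmut-GFP cells with TMZ differed most, with a chi-square per degree of freedom of 5.51 against 2.15 to 2.57 in the other groups. Of 12 glioma and astrocyte markers 8 passed the filter on low counts. VIM, NES and CD44 were at 524 CPM or more in every library, whereas the astrocyte markers GFAP, SOX9, AQP4 and ALDH1L1 did not reach 1 CPM in any. S100B ranged from 14.3 to 798 CPM and FABP7 from 5.73 to 188 CPM, and both fell in both clones (S100B log2 -1.56 and -1.28, FABP7 log2 -1.99 and -1.25). Without TMZ their means were 777 and 175 CPM in Surv-GFP and 40.6 and 15.1 CPM in SurvNESmut-GFP cells. Of the 8 markers tested, 6 were lower and 2 higher in untreated SurvNESmut-GFP than in untreated Surv-GFP cells (median log2 -1.05). Over all genes tested, 29.4% were lower and 34.7% higher in that comparison. SLC1A3, at 2.67 to 30.6 CPM, fell in Surv-GFP cells (log2 -1.92, adjusted p = 3.6e-08, edgeR) and rose in SurvNESmut-GFP cells (log2 1.90, adjusted p = 6.7e-09, edgeR). The summed level of the 12 markers was 6095 to 6186 CPM in untreated and 3854 to 3947 CPM in TMZ-exposed Surv-GFP cells, and 4635 to 4822 CPM and 4090 to 4204 CPM in SurvNESmut-GFP cells. Of 17 markers of other cell types 10 passed the filter. Their sum was 207 to 213 CPM without and 436 to 437 CPM with TMZ in Surv-GFP cells, and 244 to 252 CPM and 341 to 361 CPM in SurvNESmut-GFP cells. KRT18 and ACTA2 made up most of that sum. The immune, endothelial and epithelial markers PTPRC, AIF1, PECAM1, CDH5, EPCAM and CDH1 stayed at 0.389 CPM or less and VWF at 0.867 CPM or less, whereas the macrophage marker CD68 was at 11.9 to 21.4 CPM and the epithelial keratin KRT8 at 10.95 to 41.3 CPM. CD68 rose in both clones (log2 0.59, adjusted p = 0.00011, and log2 0.40, adjusted p = 0.0044, edgeR), and so did KRT8 (log2 0.62, adjusted p = 1.8e-05, and log2 0.62, adjusted p = 0.00059, edgeR). KRT18 and ACTA2 rose in both as well. PDGFRB fell in both clones (log2 -0.82, adjusted p = 0.00016, and log2 -1.03, adjusted p = 4.8e-05, edgeR), and so did COL1A1 (log2 -0.81, adjusted p = 0.00026, and log2 -0.43, adjusted p = 0.00044, edgeR). In untreated cells COL1A1 was at 6.3 CPM in Surv-GFP and 42.5 CPM in SurvNESmut-GFP cells. The mean of MBP was 0 CPM in Surv-GFP cells and 6.66 and 6.43 CPM in SurvNESmut-GFP cells without and with TMZ. The part of these shifts in the results below was not tested. In such bulk RNA, fewer cells expressing a gene and less RNA per cell cannot be told apart.

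Promoter sequence was on hand for 7 of the 9 genes, with 9 start sites between them, but not for ERBB3 and NRG1. The 150 bases before the start are shown for 4 ligand genes whose level differed between untreated and TMZ-exposed Surv-GFP cells, so that their promoters can be read beside their values. They are from RefSeq on GRCh38.p14, written 5′ to 3′ on the strand of the gene, and capitals mark the motif matches given below. HBEGF is shown at chr5:140346604-140346753, minus strand, and TGFA, at the first of its 2 start sites, at chr2:70553827-70553976, minus strand. BTC is shown at chr4:74794524-74794673, minus strand, and EREG at chr4:74364995-74365144, plus strand.
HBEGF: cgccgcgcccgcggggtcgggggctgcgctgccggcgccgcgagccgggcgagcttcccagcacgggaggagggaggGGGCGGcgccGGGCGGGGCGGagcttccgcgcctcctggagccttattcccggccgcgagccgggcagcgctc
TGFA: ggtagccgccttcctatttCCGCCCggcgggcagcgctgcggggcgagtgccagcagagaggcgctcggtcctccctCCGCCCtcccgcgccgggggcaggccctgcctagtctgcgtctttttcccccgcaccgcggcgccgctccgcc
BTC: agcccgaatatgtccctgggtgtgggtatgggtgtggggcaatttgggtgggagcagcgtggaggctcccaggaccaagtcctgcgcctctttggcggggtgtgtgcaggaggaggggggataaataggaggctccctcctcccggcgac
EREG: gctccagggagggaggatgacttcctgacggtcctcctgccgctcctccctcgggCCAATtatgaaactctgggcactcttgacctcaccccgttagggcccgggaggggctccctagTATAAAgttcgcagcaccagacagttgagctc

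Both strands of the window from 250 bases before to 50 after each start were searched for 5 motifs. These were the AP-1 motif TGANTCA, the CRE TGACGTCA, the GC box GGGCGG, the TATA box TATAAA and the CCAAT box CCAAT, none of which contains another. N stands for any base, so this AP-1 motif is looser than TGACTCA or TGAGTCA. Among 34943 promoters of the same length, 7.72% held the AP-1 motif, 1.84% the CRE, 44.9% the GC box, 11.6% the TATA box and 34.6% the CCAAT box. HBEGF held 5 GC boxes, a pair of which overlapped by a base, and the first TGFA window held 4. BTC held 1 GC box, which lies after the start and outside the bases shown. EREG held the TATA box from 32 bases before its start and a CCAAT box from 95 and from 196 bases before it. Neither the AP-1 motif nor the CRE was found in the windows of these 4 genes. The AP-1 motif was found in ERBB2 as TGATTCA, and at the internal start site of EGFR as TGAGTCA and TGACTCA. The CRE was found in AREG. Such matches describe letters and not bound sites.

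Levels were compared between genes per kb of exon, using exon lengths of GENCODE v29, which may differ from the annotation behind the counts. The length of a gene was that of the merged exons of all its basic transcripts, and the order of genes depends on this choice. In untreated Surv-GFP cells ERBB3 had the highest level, 140 ± 1.13 CPM per kb (SD, n = 2), followed by TGFA at 115 ± 6.36 and ERBB2 at 36.2 ± 1.47 CPM per kb. EGFR stood well below them at 4.39 ± 0.183 CPM per kb. HBEGF reached 1.55 ± 0.00424 and NRG1 1.01 ± 0.211 CPM per kb, and BTC and EREG stood lowest at 0.117 ± 0.00149 and 0.0120 ± 0.0169 CPM per kb. The letters of neighbouring genes in this order did not overlap. In CPM, without division by length, NRG1 (mean 9.34) stood above HBEGF (mean 3.69) in this group. The order covers the members alone. The ligands NRG2 and EGF, which are not members, stood at 2.14 ± 0.0764 and 1.49 ± 0.122 CPM per kb in the same cells.

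With TMZ the order of the leading genes changed in Surv-GFP cells. TGFA came first at 192 ± 0.566 CPM per kb, ahead of ERBB3 at 73.9 ± 5.32 and ERBB2 at 34.8 ± 0.389 CPM per kb. In SurvNESmut-GFP cells TGFA led in both states, at 163 ± 4.53 CPM per kb without and 249 ± 28.1 CPM per kb with TMZ. ERBB3 was second in untreated SurvNESmut-GFP cells at 38.6 ± 1.26 CPM per kb. With TMZ, ERBB2 at 24.1 ± 0.311 and ERBB3 at 22.7 ± 4.58 CPM per kb lay within each other's spread. HBEGF at 1.96 ± 0.273 and NRG1 at 2.34 ± 0.486 CPM per kb overlapped in that group as well.

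**Figure D1:**
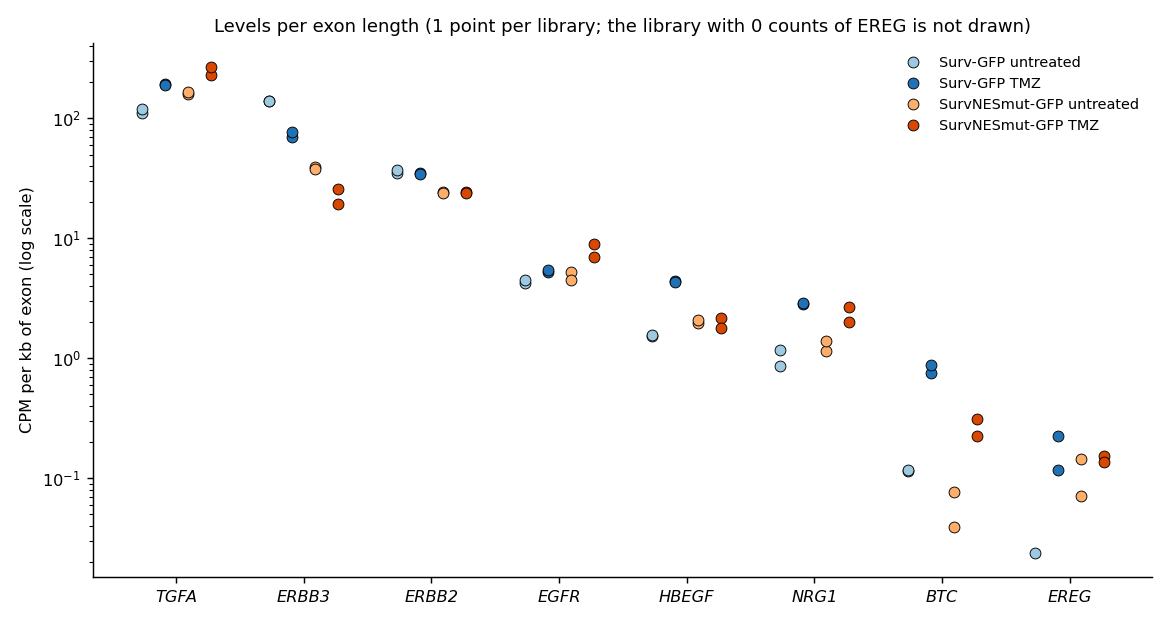
Level of each detected member in CPM per kb of exon (vertical axis, log scale), with 1 point per library and 1 colour per group. TGFA and ERBB3 stand highest in 3 of the 4 groups, ERBB2 and ERBB3 overlap in SurvNESmut-GFP cells with TMZ, and BTC and EREG stand lowest in all. ERBB3 goes from 140 CPM per kb in untreated Surv-GFP cells to 22.7 CPM per kb in SurvNESmut-GFP cells with TMZ.

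TGFA made up 95.8% to 98.5% of the summed per-kb level of the 6 ligands in every library. HBEGF accounted for 1.36% and 1.27% of that sum in untreated Surv-GFP cells, 2.22% and 2.18% with TMZ, and 0.649% to 1.22% in the 4 SurvNESmut-GFP libraries. Among the 3 receptors, ERBB3 made up 78.0% and 77.2% of the summed per-kb level in untreated Surv-GFP cells and 36.9% and 45.7% in SurvNESmut-GFP cells with TMZ. EGFR made up 2.39% and 2.48% in the former and 16.96% and 12.3% in the latter. The per-kb level of ERBB3 was 32.7 and 31.2 times that of EGFR in untreated Surv-GFP cells, and 13.4 and 14.2 times with TMZ. In SurvNESmut-GFP cells this ratio was 7.61 and 8.41 without and 2.18 and 3.71 with TMZ. In each clone the ratio was thus lower in both libraries with TMZ.

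The first question was how each gene differed between untreated and TMZ-exposed cells of a clone. In Surv-GFP cells 6 of the 9 genes rose and 1 fell, by edgeR's quasi-likelihood test at an adjusted p of 0.05. Among all genes tested, 30.1% rose and 28.9% fell in this comparison. In SurvNESmut-GFP cells 4 genes rose and 1 fell, where 18.6% of all genes tested rose and 19.1% fell. The median log2 fold change over all genes was 0.00 in both clones. The study names the same test but reports few significant hits for the TMZ effects and their difference, and it loosened its p-value threshold. The source of this discrepancy was not tested. BTC and EREG had at most 12 counts in any untreated library and passed the filter on low counts through the groups where they were higher, so that these counts are a description and not support for a shared direction.

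**Figure D2:**
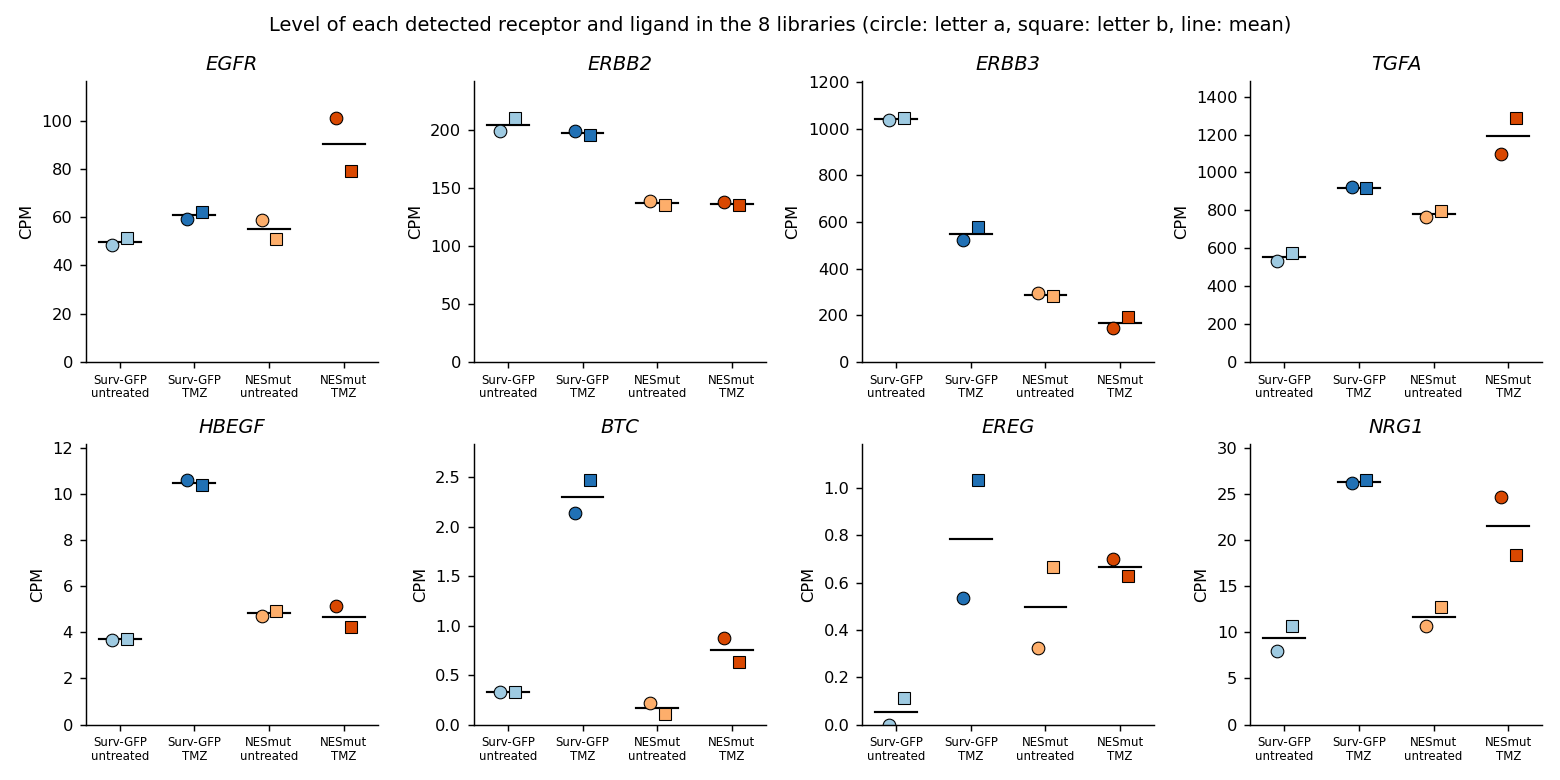
CPM (vertical axis, from 0) of the 8 detected genes in each of the 8 libraries, with NESmut standing for SurvNESmut-GFP, circles for letter a, squares for letter b and lines for the mean of 2 libraries. HBEGF is near 10.5 CPM in both TMZ-exposed Surv-GFP libraries and at 5.14 CPM or less in all others.

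**Figure D3:**
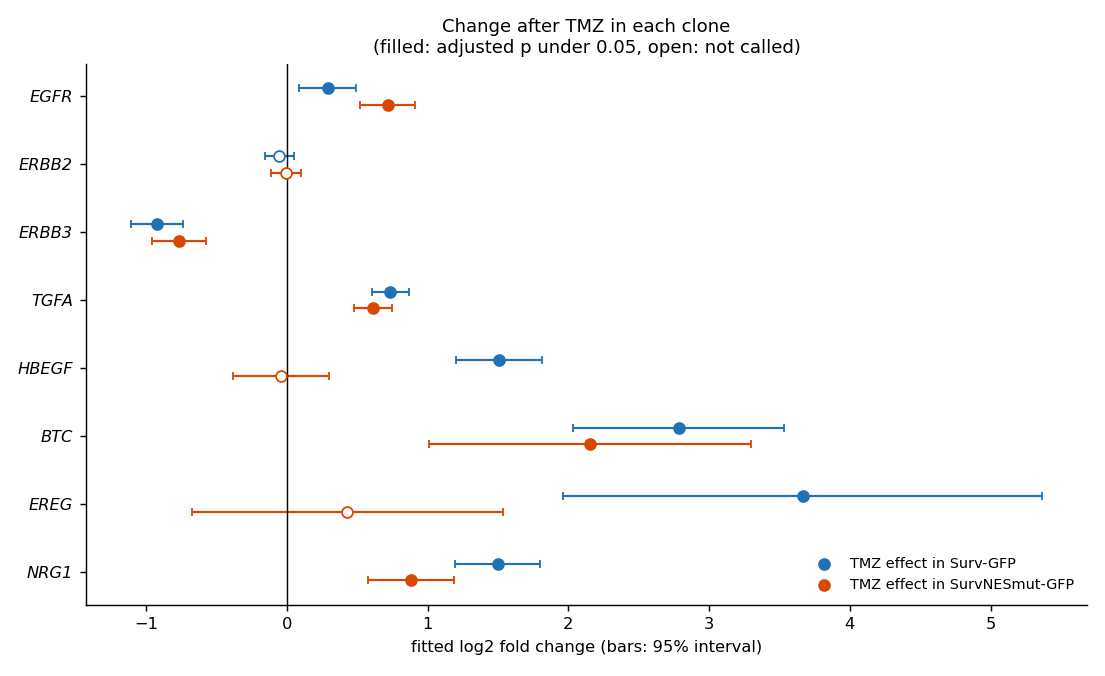
Fitted log2 fold change upon TMZ (horizontal axis) in Surv-GFP (blue) and SurvNESmut-GFP cells (orange) with 95% intervals, filled where the adjusted p was under 0.05. The intervals of HBEGF lie apart, while those of TGFA and ERBB3 overlap, and the fitted value of EREG in Surv-GFP cells rests on 2 untreated counts.

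EGFR, the receptor of TGFA, HBEGF, BTC and EREG, rose in both clones. In Surv-GFP cells it stood at 48.3 and 51.2 CPM without TMZ and at 59.4 and 62.2 CPM with it. In SurvNESmut-GFP cells it stood at 58.9 and 50.9 CPM without and at 101 and 79.2 CPM with TMZ. Both TMZ-exposed libraries lay above both untreated ones in each clone, and the letters with TMZ lay farther apart in SurvNESmut-GFP cells. EGFR rose 1.22-fold in Surv-GFP cells (log2 0.29, SE 0.0957, adjusted p = 0.016, edgeR) and 1.65-fold in SurvNESmut-GFP cells (log2 0.72, SE 0.0921, adjusted p = 1.3e-05, edgeR). The rise in Surv-GFP cells lost its call without the untreated replicate a (log2 0.25, adjusted p = 0.108, edgeR) and without the TMZ replicate b (log2 0.22, adjusted p = 0.132, edgeR). Exons of EGFR overlap those of EGFR-AS1 on the opposite strand, and a use of strand in the counting is not given in the sources.

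ERBB2, the receptor without a ligand of its own, was not called in either clone. Surv-GFP cells had 199 and 211 CPM without and 199 and 196 CPM with TMZ. SurvNESmut-GFP cells had 138 and 136 CPM without and 138 and 135 CPM with TMZ. The untreated and TMZ-exposed libraries of a clone lay close together or overlapped. The log2 fold change was -0.05 in Surv-GFP cells (95% interval -0.15 to 0.05, adjusted p = 0.36, edgeR) and -0.01 in SurvNESmut-GFP cells (-0.11 to 0.10, adjusted p = 0.93, edgeR). Part of its exons overlap PGAP3 on the other strand.

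ERBB3, the neuregulin receptor, was the only member that fell upon TMZ, and it fell in both clones. Its level in Surv-GFP cells was 1035 and 1047 CPM without and 521 and 577 CPM with TMZ. In SurvNESmut-GFP cells it was 294 and 280 CPM without and 144 and 193 CPM with TMZ. No library with TMZ reached the untreated libraries of its clone. ERBB3 was 1.90-fold lower in Surv-GFP cells (log2 -0.92, SE 0.0864, adjusted p = 1.2e-07, edgeR) and 1.71-fold lower in SurvNESmut-GFP cells (log2 -0.77, SE 0.0903, adjusted p = 5e-06, edgeR). Its exons overlap those of AC034102.2 on the same strand in GENCODE v29.

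TGFA, the most abundant ligand, rose in both clones. It went from 531 and 574 CPM without to 922 and 918 CPM with TMZ in Surv-GFP cells. SurvNESmut-GFP cells had 766 and 797 CPM without and 1098 and 1289 CPM with TMZ. The libraries with TMZ lay above the untreated ones in each clone. The rise was 1.66-fold in Surv-GFP cells (log2 0.73, SE 0.063, adjusted p = 4.2e-08, edgeR) and 1.53-fold in SurvNESmut-GFP cells (log2 0.61, SE 0.0627, adjusted p = 1.2e-06, edgeR).

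HBEGF, a heparin-binding ligand of EGFR and ERBB4, rose in Surv-GFP cells and was not called in SurvNESmut-GFP cells. Surv-GFP cells had 3.69 and 3.70 CPM without TMZ, from 68 and 67 counts, and 10.6 and 10.4 CPM with it, from 198 and 181 counts. SurvNESmut-GFP cells had 4.72 and 4.95 CPM without and 5.14 and 4.22 CPM with TMZ. The TMZ-exposed Surv-GFP libraries stood above the other 6, and the 4 SurvNESmut-GFP libraries overlapped between the groups. The rise in Surv-GFP cells was 2.84-fold (log2 1.51, SE 0.144, adjusted p = 1.6e-07, edgeR). In SurvNESmut-GFP cells the log2 fold change was -0.04 (95% interval -0.38 to 0.30, adjusted p = 0.87, edgeR).

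BTC, betacellulin, was scarce and rose in both clones. It had 6 and 6 counts in the untreated Surv-GFP libraries and 40 and 43 counts with TMZ, or 0.325 and 0.331 CPM and 2.14 and 2.47 CPM. In SurvNESmut-GFP cells it had 4 and 2 counts without and 15 and 10 counts with TMZ, or 0.217 and 0.111 CPM and 0.877 and 0.630 CPM. The groups of each clone did not overlap, with the highest levels in Surv-GFP cells with TMZ. The fitted log2 fold change was 2.78 in Surv-GFP cells (SE 0.354, adjusted p = 4.2e-06, edgeR) and 2.16 in SurvNESmut-GFP cells (SE 0.539, adjusted p = 0.0048, edgeR). The latter call was lost without the untreated SurvNESmut-GFP replicate b (log2 1.77, adjusted p = 0.0606, edgeR) or without the TMZ replicate a (log2 1.89, adjusted p = 0.0513, edgeR).

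EREG, epiregulin, was called higher with TMZ in Surv-GFP cells only, at very low counts. The untreated Surv-GFP libraries had 0 and 2 counts and those with TMZ had 10 and 18 counts, or 0 and 0.110 CPM and 0.535 and 1.03 CPM. SurvNESmut-GFP cells had 6 and 12 counts without and 12 and 10 counts with TMZ, or 0.325 and 0.667 CPM and 0.701 and 0.630 CPM. The untreated Surv-GFP libraries stood below the other 6, and the SurvNESmut-GFP groups overlapped. From the summed counts of 2 and 28, the ratio in Surv-GFP cells was 14.2, with a 95% interval of 3.57 to 123 that covers counting error only (adjusted p of the fit = 0.00089, edgeR). In SurvNESmut-GFP cells the log2 fold change was 0.43 (95% interval -0.68 to 1.53, adjusted p = 0.55, edgeR).

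AREG, amphiregulin, had 0 counts in all 8 libraries and was not tested. A count of 0 allows up to 3 counts, which corresponds to 0.160 to 0.189 CPM in these libraries, and this limit covers counting error only. Some genome builds hold a near-identical copy of AREG, whose reads could be dropped in counting, and the build behind these counts is not given in the sources. The 0 is therefore not read as absence of the transcript.

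NRG1, a neuregulin that binds ERBB3 and ERBB4, rose in both clones. In Surv-GFP cells it had 7.97 and 10.7 CPM without and 26.2 and 26.5 CPM with TMZ. In SurvNESmut-GFP cells it had 10.6 and 12.8 CPM without and 24.7 and 18.3 CPM with TMZ. All 4 libraries with TMZ stood above all 4 untreated ones. The rise was 2.82-fold in Surv-GFP cells (log2 1.496, SE 0.144, adjusted p = 1.6e-07, edgeR) and 1.84-fold in SurvNESmut-GFP cells (log2 0.88, SE 0.144, adjusted p = 0.00014, edgeR).

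The normalized inter-clonal comparison asked whether the TMZ effect itself differed between the clones, as the effect in SurvNESmut-GFP minus that in Surv-GFP cells. This signed difference was called above 0 for 1 of the 9 genes, EGFR, and below 0 for 3, HBEGF, EREG and NRG1. Among all genes tested, it was above 0 for 16.6% and below 0 for 20.2%. EREG passed the filter on low counts through the groups where it was higher, so its place in this count is a description. For HBEGF the difference was -1.55 on the log2 scale (SE 0.218, adjusted p = 4e-05, edgeR), and it was called with each library left out in turn, with values from -1.70 to -1.41. The difference of EGFR was 0.43 (SE 0.133, adjusted p = 0.018, edgeR). It was no longer called without the untreated Surv-GFP replicate b (0.38, adjusted p = 0.0797), the Surv-GFP TMZ replicate a (0.40, adjusted p = 0.0694), the untreated SurvNESmut-GFP replicate b (0.32, adjusted p = 0.121) or the SurvNESmut-GFP TMZ replicate a (0.24, adjusted p = 0.06), each by edgeR.

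NRG1 differed by -0.61 (SE 0.206, adjusted p = 0.028, edgeR). Its call was lost without the untreated Surv-GFP replicate a (-0.42, adjusted p = 0.167), the Surv-GFP TMZ replicates a (-0.62, adjusted p = 0.0591) or b (-0.58, adjusted p = 0.0711), the untreated SurvNESmut-GFP replicate b (-0.48, adjusted p = 0.162) and the SurvNESmut-GFP TMZ replicate b (-0.42, adjusted p = 0.0514). For EREG the fitted difference was -3.24 (SE 1.03, adjusted p = 0.021, edgeR), a value that depends on the small count added by the fit, since the untreated Surv-GFP libraries hold 2 counts. It moved to -6.37 (adjusted p = 0.0195) without the untreated Surv-GFP replicate b. The EREG call was lost without the untreated Surv-GFP replicate a (-2.31, adjusted p = 0.123), the Surv-GFP TMZ replicate b (-2.68, adjusted p = 0.0932) or the untreated SurvNESmut-GFP replicate b (-2.65, adjusted p = 0.137). Of the 4 differences called, that of HBEGF alone thus kept its call whichever library was left out.

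For the other 4 tested genes the difference was not called. ERBB2 differed by 0.05 (95% interval -0.10 to 0.19, adjusted p = 0.65, edgeR) and BTC by -0.63 (-2.31 to 1.05, adjusted p = 0.59, edgeR). ERBB3 differed by 0.15 (-0.11 to 0.42, adjusted p = 0.37, edgeR), and was called without the SurvNESmut-GFP TMZ replicate a (0.34, adjusted p = 0.000405). TGFA differed by -0.12 (-0.31 to 0.06, adjusted p = 0.3, edgeR), and was called without the SurvNESmut-GFP TMZ replicate b (-0.24, adjusted p = 0.00375).

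The clones were next compared with each other in each state, as SurvNESmut-GFP against Surv-GFP cells. These comparisons share their libraries with the TMZ effects above and with the difference between them. Without TMZ, 2 of the 9 genes were higher in SurvNESmut-GFP cells, TGFA and EREG, and 2 were lower, ERBB2 and ERBB3, where 34.7% of all genes tested were higher and 29.4% lower. With TMZ, EGFR and TGFA were higher, and ERBB2, ERBB3, HBEGF and BTC were lower, where 34.5% of all genes tested were higher and 34.7% lower. EREG and BTC passed the filter on low counts through the groups where they were higher, so these counts of genes are a description as well.

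ERBB3 showed the largest clone difference of the 3 receptors in both states. It was 3.63-fold lower in SurvNESmut-GFP cells without TMZ (log2 -1.86, SE 0.0891, adjusted p = 2.3e-11, edgeR) and 3.26-fold lower with TMZ (log2 -1.71, SE 0.0907, adjusted p = 6.9e-11, edgeR). The lowest Surv-GFP value, 521 CPM with TMZ, was above the highest SurvNESmut-GFP value, 294 CPM without it. ERBB2 was 1.49-fold lower without TMZ (log2 -0.58, SE 0.0488, adjusted p = 2.5e-08, edgeR) and 1.45-fold lower with TMZ (log2 -0.53, SE 0.0491, adjusted p = 6.2e-08, edgeR). EGFR was not called without TMZ (log2 0.14, 95% interval -0.06 to 0.35, adjusted p = 0.21, edgeR) and was 1.49-fold higher with TMZ (log2 0.57, SE 0.0912, adjusted p = 3.3e-05, edgeR). Without the SurvNESmut-GFP TMZ replicate a, the latter value was 0.34 (adjusted p = 0.000191).

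Among the ligands, TGFA was 1.42-fold higher in SurvNESmut-GFP cells without TMZ (log2 0.50, SE 0.063, adjusted p = 2.9e-06, edgeR) and 1.30-fold higher with it (log2 0.38, SE 0.0624, adjusted p = 5e-05, edgeR). Without the SurvNESmut-GFP TMZ replicate b the latter was 0.22 (adjusted p = 0.000294). HBEGF missed the threshold without TMZ (log2 0.39, 95% interval 0.04 to 0.74, adjusted p = 0.0502, edgeR) and was 2.23-fold lower with TMZ (log2 -1.16, SE 0.141, adjusted p = 1.7e-06, edgeR). BTC was not called without TMZ (log2 -0.97, 95% interval -2.33 to 0.39, adjusted p = 0.2, edgeR) and was 3.02-fold lower with TMZ (log2 -1.59, SE 0.302, adjusted p = 0.00019, edgeR). These are different tests, and whether the clone difference itself changed with TMZ is the comparison of TMZ effects given above.

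EREG had 2 counts in untreated Surv-GFP and 18 in untreated SurvNESmut-GFP cells, a ratio of 9.03 with a 95% counting interval of 2.16 to 80.3 (adjusted p of the fit = 0.0073, edgeR). This call was lost without the untreated Surv-GFP replicate a (adjusted p = 0.0776) or the untreated SurvNESmut-GFP replicate b (adjusted p = 0.0941). With TMZ the log2 difference of EREG was -0.22 (95% interval -1.22 to 0.79, adjusted p = 0.7, edgeR). NRG1 was called in neither state (log2 0.33, adjusted p = 0.09, and log2 -0.29, adjusted p = 0.056, edgeR). Without TMZ it was called when the untreated Surv-GFP replicate b (adjusted p = 0.0227) or the SurvNESmut-GFP TMZ replicates a (adjusted p = 0.0438) or b (adjusted p = 0.0435) was left out, and in a fit to the 4 libraries compared (log2 0.29, adjusted p = 0.042). With TMZ it was called without either untreated Surv-GFP replicate (adjusted p = 0.0432 for each) and without the SurvNESmut-GFP TMZ replicate a (adjusted p = 0.000249), and also with DESeq2's size factors (log2 -0.30, adjusted p = 0.0483) and with no filter on low counts (log2 -0.30, adjusted p = 0.01).

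**Figure D4:**
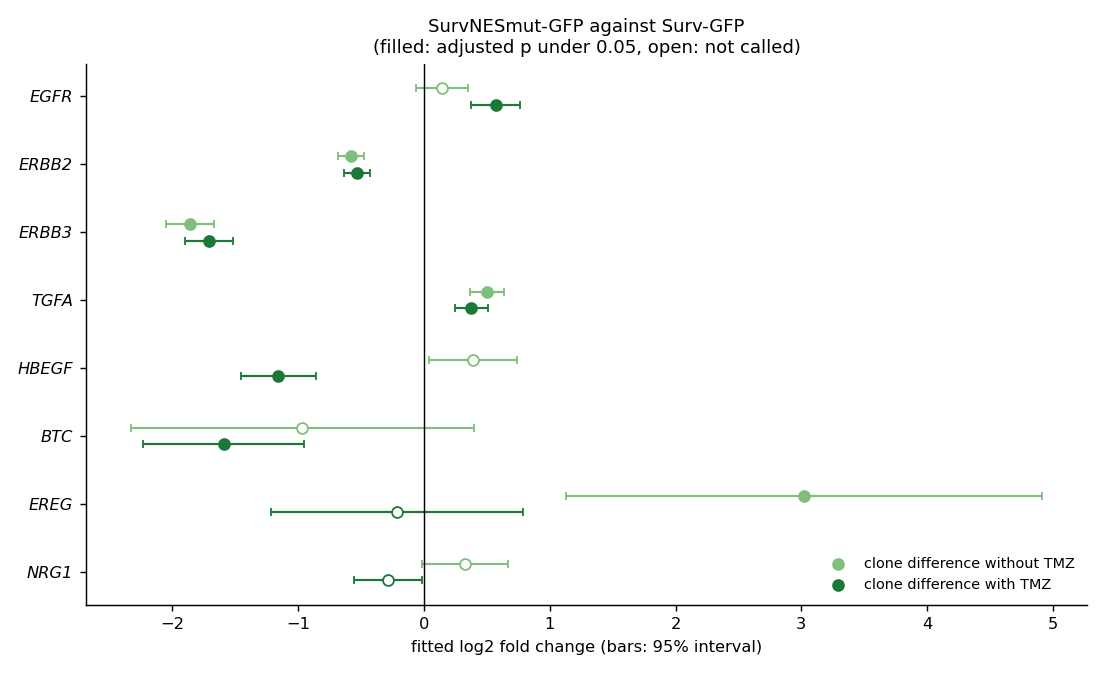
Fitted log2 difference of SurvNESmut-GFP against Surv-GFP cells (horizontal axis) without (light) and with TMZ (dark), with 95% intervals and filled points where the adjusted p was under 0.05. ERBB2 and ERBB3 lie below 0 and TGFA above 0 in both states, HBEGF lies at 0.39 without and -1.16 with TMZ, and the value of EREG without TMZ rests on 2 counts in Surv-GFP cells.

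The family has further receptors and ligands. EGF, the founding ligand, fell in both clones. It went from 6.88 and 7.73 CPM to 4.55 and 4.59 CPM in Surv-GFP cells (log2 -0.68, SE 0.174, adjusted p = 0.0032, edgeR) and from 10.5 and 10.4 CPM to 3.45 and 5.48 CPM in SurvNESmut-GFP cells (log2 -1.23, SE 0.168, adjusted p = 2.5e-05, edgeR). NRG2, another neuregulin, fell in both clones as well, from 8.996 and 8.56 CPM to 3.05 and 2.93 CPM in Surv-GFP cells (log2 -1.55, SE 0.157, adjusted p = 3.1e-07, edgeR). In SurvNESmut-GFP cells it went from 4.07 and 4.89 CPM to 3.10 and 3.34 CPM (log2 -0.48, SE 0.179, adjusted p = 0.046, edgeR), and the TMZ effects on NRG2 differed by 1.08 (adjusted p = 0.0024, edgeR). EGF and NRG2 were thus lower with TMZ in the cells in which TGFA and NRG1 were higher. ERBB4, the other neuregulin receptor, was between 0.428 and 1.36 CPM in the 8 libraries and was called in neither clone. EPGN and NRG3 had 0 counts in all 8 libraries, and NRG4 had at most 6 counts.

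Genes that act around the receptors were counted from 4 lists. Of 11 genes for ligand shedding, 4 rose and 3 fell in Surv-GFP cells (median log2 fold change 0.03), and 2 rose and 3 fell in SurvNESmut-GFP cells (median -0.07). Over all genes tested 30.1% rose and 28.9% fell in Surv-GFP cells and 18.6% and 19.1% in SurvNESmut-GFP cells, and the shares of this list lie near these. ADAM17, the main protease that releases TGFA, HBEGF, EREG and AREG, rose in Surv-GFP cells (log2 0.72, SE 0.0533, adjusted p = 7.3e-09, edgeR), from a mean of 73.4 to 121 CPM. In SurvNESmut-GFP cells its mean was 138 CPM without and 131 CPM with TMZ (log2 -0.08, adjusted p = 0.25, edgeR), and the TMZ effects differed by -0.80 (adjusted p = 4.9e-07, edgeR). ADAM10, which releases BTC and EGF, fell in both clones (log2 -0.53, adjusted p = 2.5e-07, and log2 -0.37, adjusted p = 3.5e-05, edgeR). FRMD8, which stabilises ADAM17 complexes with iRhom proteins, fell in both clones too (log2 -0.44 and -0.69, adjusted p = 2.3e-05 and 7.1e-07, edgeR). The signed difference between the TMZ effects was called above 0 for 3 and below 0 for 4 of the 11 genes. Over all genes tested it was called above 0 for 16.6% and below 0 for 20.2%. A signed difference does not give which effect was the larger in size, since a gene that fell less in SurvNESmut-GFP cells lies above 0 too.

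Of 27 genes for restraint, sorting and turnover of the receptors, 25 were tested, and the list was not split by how a gene acts. In Surv-GFP cells 16 rose and 3 fell (median 0.26), and in SurvNESmut-GFP cells 6 rose and 5 fell (median 0.05). All genes tested had 30.1% and 28.9% in the former and 18.6% and 19.1% in the latter, which the SurvNESmut-GFP counts lie near. RNF41, a ubiquitin ligase for ERBB3, rose in both clones (log2 1.196, SE 0.053, adjusted p = 1.2e-11, and log2 0.74, SE 0.0599, adjusted p = 7.1e-08, edgeR), and the effects differed by -0.45 (adjusted p = 0.00033, edgeR). CBL, the ubiquitin ligase of activated EGFR, rose in both clones (log2 0.86, SE 0.0613, adjusted p = 4.7e-09, and log2 0.21, adjusted p = 0.017, edgeR), and the effects differed by -0.65 (adjusted p = 3.2e-05, edgeR). HGS, a sorting protein of the endosome, rose in both clones (log2 0.79, adjusted p = 1.2e-09, and log2 0.24, adjusted p = 0.0016, edgeR) with a difference of -0.56 (adjusted p = 1.6e-05, edgeR). The signed difference was called below 0 for 11 and above 0 for 2 of the 25 genes (median -0.18, against 0.00 over all genes). Over all genes tested it was called below 0 for 20.2% and above 0 for 16.6%.

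Of 37 transducers next to the receptors, 14 rose and 12 fell in Surv-GFP cells, and 4 rose and 7 fell in SurvNESmut-GFP cells, with medians of -0.01 and -0.03. These counts lie near the shares over all genes, 30.1% and 28.9% in Surv-GFP and 18.6% and 19.1% in SurvNESmut-GFP cells. BRAF, a kinase of the ERK cascade, rose in Surv-GFP cells (log2 0.78, adjusted p = 2e-07, edgeR) and was not called in SurvNESmut-GFP cells (log2 -0.12, adjusted p = 0.3, edgeR), and its effects differed by -0.90 (adjusted p = 1.4e-05, edgeR). GAB1, a docking protein, fell in both clones (log2 -0.77, adjusted p = 1.2e-06, and log2 -0.55, adjusted p = 0.00026, edgeR). PIK3R1, the regulatory subunit of PI3-kinase, fell in Surv-GFP cells (log2 -0.71, adjusted p = 1.1e-07, edgeR) and was not called in SurvNESmut-GFP cells (log2 0.01, adjusted p = 0.92, edgeR), with a difference of 0.72 (adjusted p = 2.6e-05, edgeR). Over the list, the signed difference was called above 0 for 6 and below 0 for 8 genes. These counts lie near the shares over all genes tested, 16.6% above and 20.2% below 0.

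Of 30 genes known as transcriptional output of ERK, 14 rose and 10 fell in Surv-GFP cells (median 0.12), and 11 rose and 10 fell in SurvNESmut-GFP cells (median -0.07). Over all genes tested the shares were 30.1% and 28.9% in Surv-GFP and 18.6% and 19.1% in SurvNESmut-GFP cells. LIF, a cytokine, rose in both clones, from a mean of 75.9 to 1153 CPM in Surv-GFP cells (log2 3.93, SE 0.0655, adjusted p = 2.3e-16, edgeR) and from 554 to 689 CPM in SurvNESmut-GFP cells (log2 0.31, adjusted p = 0.00037, edgeR). Its effects differed by -3.61 (adjusted p = 1.1e-13, edgeR). DUSP5, a phosphatase of ERK, rose in both clones (log2 3.08, adjusted p = 2e-12, and log2 1.55, adjusted p = 4.8e-07, edgeR) with a difference of -1.53 (adjusted p = 1.7e-05, edgeR). EPHA2, a receptor tyrosine kinase, also rose in both (log2 1.51, adjusted p = 2.5e-13, and log2 0.61, adjusted p = 4.3e-08, edgeR) with a difference of -0.90 (adjusted p = 4.6e-08, edgeR). FOSL1, an AP-1 subunit, rose in both (log2 1.48, adjusted p = 8.3e-13, and log2 0.14, adjusted p = 0.038, edgeR) with a difference of -1.34 (adjusted p = 1.2e-09, edgeR). FOS, another AP-1 subunit, fell in Surv-GFP cells (log2 -1.92, adjusted p = 2e-05, edgeR) and was not called in SurvNESmut-GFP cells (log2 -0.20, adjusted p = 0.64, edgeR). JUNB fell in both (log2 -0.95, adjusted p = 0.00011, and log2 -0.58, adjusted p = 0.014, edgeR). FOSB was not called in Surv-GFP cells (log2 -0.31, adjusted p = 0.3, edgeR) and rose in SurvNESmut-GFP cells (log2 1.39, adjusted p = 0.00015, edgeR). SPRY4, a feedback inhibitor, fell in both (log2 -1.30, adjusted p = 1.6e-07, and log2 -1.51, adjusted p = 3e-07, edgeR), and the difference was not called (-0.21, adjusted p = 0.4, edgeR). The signed difference between the TMZ effects was called below 0 for 20.2% and above 0 for 16.6% of all genes tested. Of the 30 genes of this list, it was called below 0 for 15 and above 0 for 6 (median -0.28). These genes answer to other inputs as well, and members moved in both directions.

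**Figure D5:**
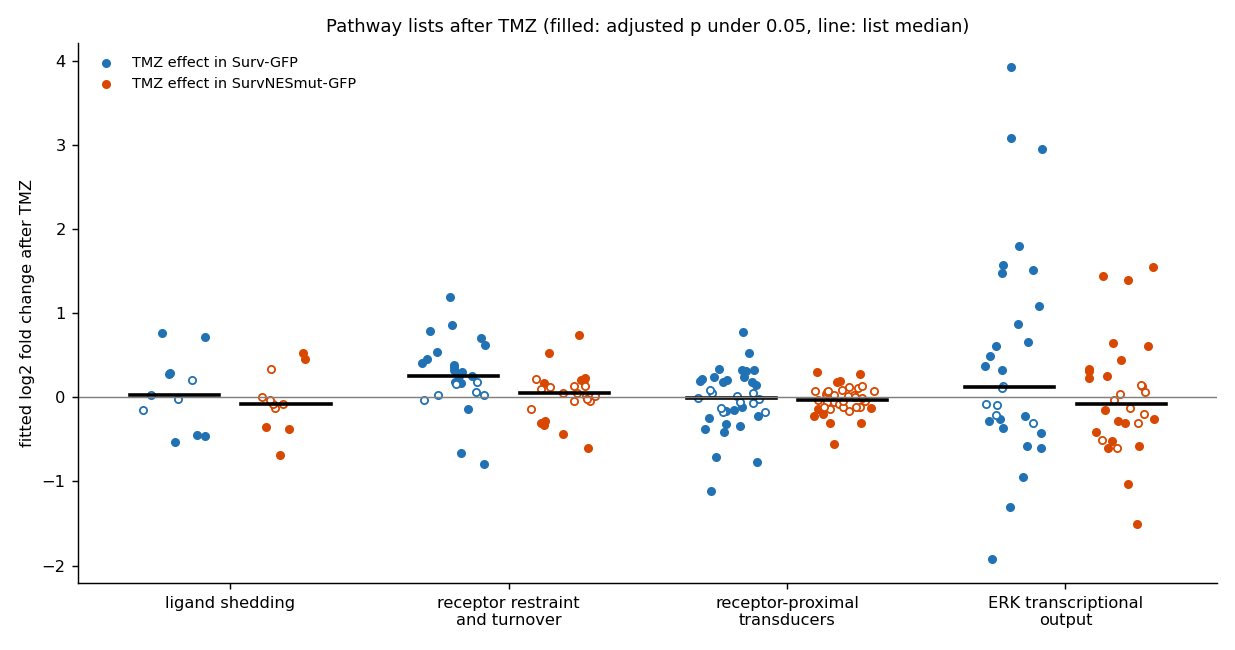
Fitted log2 fold change upon TMZ (vertical axis) of each tested gene in 4 lists around the receptors, for Surv-GFP (blue) and SurvNESmut-GFP cells (orange), filled where the adjusted p was under 0.05, with lines at the list medians. Genes of every list lie on both sides of 0, and the median of the restraint and turnover genes is 0.26 in Surv-GFP and 0.05 in SurvNESmut-GFP cells.

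For each tested member, the genes whose pattern over the 8 libraries was most like it were found by the root mean square difference of log2 CPM, each gene centred on its mean. HBEGF was nearest to RAPH1 (0.0966), USP53 (0.120) and GRB10 (0.121), and NRG1 to YARS (0.122), CEP170B (0.123) and MARS (0.128). ERBB3 was nearest to HIST2H2BE (0.0906), LRRK2 (0.129) and RHOU (0.163), and TGFA to TMEM120B (0.0868), RAD51C (0.0911) and RPS10P7 (0.0938). EGFR was nearest to ACRC (0.0967), EHD1 (0.0969) and NBEA (0.0984), and ERBB2 to FYTTD1 (0.0388), ATP6V0D1 (0.0408) and ARHGEF12 (0.0424). BTC and EREG, with few counts, had no gene as near, with ARHGEF2 at 0.194 and MYEOV at 0.400 as their closest. No member was among the 3 nearest genes of another.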

How the data were processed

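The 8 libraries were grouped by their sample labels, and columns of the count table were matched by the code in each title. The deposited values are unnormalized counts of reads for each gene symbol, which the authors made from Illumina reads. The submitters' processing notes name STAR 2.5.0b, Cufflinks 2.2.1 and edgeR without their roles. The sources used here give no genome build or annotation. Rows that name no gene (11.25% to 14.34% of reads without a feature and 1.193% to 1.283% ambiguous) were left out. Tables of 5 comparisons by the authors, with log2 fold changes, log2 CPM, F scores, p-values and FDR as deposited, were not used.

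The analysis was run with edgeR 4.0.16 and limma 3.58.1 under R 4.3.3. The model held 4 group means over all 8 libraries, with TMM factors, edgeR's low-count filter by group and the quasi-likelihood F test with the method before edgeR 4, leaving 4 residual degrees of freedom. The test adds to these 4 further degrees of freedom from the spread shared across genes, and p-values and intervals rest on the total. P-values were adjusted by Benjamini-Hochberg over 14201 genes. SEs were derived from the F statistic. The code was tested on simulated data. The members, the gene lists and the rule for named genes (at most 4 per list and contrast, by the smallest p among those called and moving the same way in both letters) were chosen with earlier results of these data known. FOS, JUNB and FOSB were named beside this rule, as other AP-1 subunits of the ERK list. Alternatives were DESeq2 1.42.0 or its size factors, library size alone, other filters, the edgeR 4 method, the replicate letter as a block, a fit to just the 4 libraries of a comparison, and leaving out each library. Correlations of deviations between same-lettered libraries were -0.067 to 0.083, so the letters were not treated as pairs. Intervals and limits for counts of 0 cover counting error only.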

Additional observations from a re-analysis of the deposited data

Results flagged for a closer look

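For 4 genes the response to TMZ differed between the clones by the test of the difference itself (edgeR's quasi-likelihood test, SurvNESmut-GFP minus Surv-GFP cells, log2 scale), where the difference was called above 0 for 16.6% and below 0 for 20.2% of all genes tested. HBEGF differed by -1.5452, rising in both Surv-GFP letters and overlapping with the untreated libraries in SurvNESmut-GFP cells. EGFR differed by 0.4291, with a larger rise in SurvNESmut-GFP cells. NRG1 differed by -0.6134, with a smaller rise in SurvNESmut-GFP cells. EREG differed by -3.2368, a fitted value that rests on 2 counts in untreated Surv-GFP cells. The calls of EGFR, NRG1 and EREG depended on single libraries, as given above.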

How the results depend on the processing

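Of 622 alternative values of the members' log2 fold changes, 585 kept their direction and their side of the threshold, 18 lost and 11 gained a call and 8 changed sign. Counts over all genes stayed within 1.5 times in 158 of 158 cases. Of the members' counts, 9 of 158 moved further. Higher in SurvNESmut-GFP without TMZ were 1 gene with a filter of 1 CPM in 2 libraries, which drops EREG, and 1 to 3 genes with a library left out. The signed difference between TMZ effects was called above 0 for 0 to 1 and below 0 for 1 to 3 genes with a library left out. All values that changed sign were uncalled. ERBB2 upon TMZ in SurvNESmut-GFP cells was 0.0286 with library size alone. With each library left out in turn, that effect ranged from -0.0253 to 0.0103, HBEGF upon TMZ in SurvNESmut-GFP cells from -0.1916 to 0.0954 and EREG in the same comparison from -9e-04 to 1.0178. Under the same alternatives the difference between TMZ effects ranged from -7e-04 to 0.0829 for ERBB2 and from -0.0669 to 0.3448 for ERBB3, and the clone difference of EREG with TMZ from -0.6613 to 0.3124. The causes were not tested. With the replicate letter as a block, 6 members were called higher in Surv-GFP cells with TMZ, the genes called over the whole table were 4186 higher and 4017 lower in that comparison, and no call of a member changed. The letters did not deviate together, so this block rests on a shared letter alone. Genes with few counts, BTC and EREG, limit what the depth can show.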
